A study of Mus musculus with 121 samples.

Results

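The TNF superfamily genes described here are the 29 genes named Tnf, Tnfsf (ligands) or Tnfrsf (receptors) that had a usable probe on the arrays of 6 transplanted murine tumours. 38 probes carried a single gene symbol of this kind, and they represented 31 genes. A gene was kept when a probe had a value on at least 90% of the 121 arrays, and its brightest such probe stood for it. Tnfrsf1b, with values on 84.3% of arrays, and Tnfsf15, with values on 76.9%, fell short of that share and were left out. The 29 members are part of 15163 genes measured in this way, and 23 of them were among the 12962 genes bright enough for the main test. They comprise 10 ligands, 4 receptors with a death domain, 11 receptors that signal by binding TRAF adaptor proteins, and 4 decoy receptors or their relatives. The other 6 members (Tnf, Tnfsf4, Tnfsf18, Tnfrsf13c, Tnfrsf17 and Tnfrsf21) had a mean log2 intensity below the limit of -1.08 and are described separately.

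TNF family ligands are trimeric proteins on or shed from the cell surface, and they act by clustering their receptors. Receptors with a death domain can recruit adaptors and caspases that kill the cell. The other signalling receptors bind TRAF proteins and switch on NF-kB and stress kinases, which in lymphocytes gives costimulation and survival, while decoy receptors bind ligand without a full signal. In tumours the ligands are supplied largely by immune and stromal cells, and the receptors are found on tumour cells, vessels and leukocytes alike.

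Each tumour had been grown in the hind leg of male C3H/HeMs mice and irradiated locally in 1 dose, and RNA from the dissected tumour was hybridised to a 1-colour CodeLink array. The tumours were a radiation-induced C3H fibrosarcoma coded g_8520 on its gamma arrays and called the induced fibrosarcoma below; nfsa, a spontaneous fibrosarcoma; mmca and mca4, spontaneous mammary carcinomas; and scc7 and nrs1, spontaneous squamous cell carcinomas. Gamma rays gave 81 arrays and carbon ions gave 40, in 54 groups of 2 or 3 arrays. For the induced fibrosarcoma, nfsa, mmca and mca4, gamma groups of 0, 30, 50 and 70 Gy were taken on day 1. Later gamma groups of these tumours were the induced fibrosarcoma at 30 Gy on days 8 and 16 and at 50 Gy on day 22, nfsa at 30 and 50 Gy on days 4 and 9, mmca at 30 Gy on day 9 and at 50 Gy on day 19, and mca4 at 30 Gy on day 11 and at 50 Gy on days 25 and 41. The unirradiated day 1 arrays were the control for all of these times, except that mmca had unirradiated day 9 arrays, which were used for its later times. Gamma scc7 had 30 Gy on day 8 and 50 Gy on days 23 and 35, and gamma nrs1 had 30 Gy on day 8 and 50 Gy on day 15, with no unirradiated arrays, so that dose and time cannot be told apart there. Carbon ions were given at 30 Gy: mmca and mca4 were sampled unirradiated at 0 h and then at 6 h and on days 1, 3, 5 and 20. In the carbon-treated induced fibrosarcoma, nfsa and nrs1 days 5 and 20 were sampled and in carbon scc7 days 5 and 42, without unirradiated arrays. Each tumour is a single transplanted line, and nothing in the labels says whether arrays of a group came from separate animals, so the p-values measure the spread between these arrays, which may be technical.

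The deposited values are linear intensities without a stated normalization. On gamma arrays 9.99% to 18.6% of all probes had no value and the array median was 1.31 to 1.85, against 0.541% to 4.92% and 1.04 to 1.07 on carbon arrays, so levels were compared within a beam only. The summed intensity of the epithelial markers measured (from a list of keratins, Cdh1 and Epcam) was 824 to 1223 in nrs1, 193 to 319 in mmca and 149 to 337 in mca4. In scc7 that sum was only 2.51 to 4.81, in the range of the fibrosarcomas, nfsa (3.27 to 5.48) and the induced one (0.956 to 4.14), while its fibroblast marker sum was 385 to 574. The arrays labelled as scc7 squamous carcinoma therefore lack the epithelial markers that the label implies, and scc7 is named below by its label only.

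Promoter sequences were taken from RefSeq (build GRCm38.p6) for 22 of the 29 members, each from 250 bases before to 50 bases after a listed start. Those shown belong to genes for which a late rise in some or all tumours is described below: the ligand Tnfsf13b and the receptors Tnfrsf9, Tnfrsf14 and Tnfrsf12a. Tnfrsf12a also fell late in nfsa. They are on the strand of the gene, and capitals mark matches on either strand to TGANTCA (AP-1), GAAANNGAA (the core of an interferon-stimulated response element, ISRE) or GGNNTTTCC (NF-kB). The TATA box, spelled TATAAA, was searched as well.
Tnfsf13b, chr8:10006383-10006682 (+): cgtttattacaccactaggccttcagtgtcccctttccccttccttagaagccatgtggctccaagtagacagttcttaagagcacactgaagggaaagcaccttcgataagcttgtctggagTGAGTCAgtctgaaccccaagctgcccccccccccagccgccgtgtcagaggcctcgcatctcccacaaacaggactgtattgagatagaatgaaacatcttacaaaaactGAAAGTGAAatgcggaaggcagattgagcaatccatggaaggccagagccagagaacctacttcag
Tnfrsf9, chr4:150927749-150928048 (+): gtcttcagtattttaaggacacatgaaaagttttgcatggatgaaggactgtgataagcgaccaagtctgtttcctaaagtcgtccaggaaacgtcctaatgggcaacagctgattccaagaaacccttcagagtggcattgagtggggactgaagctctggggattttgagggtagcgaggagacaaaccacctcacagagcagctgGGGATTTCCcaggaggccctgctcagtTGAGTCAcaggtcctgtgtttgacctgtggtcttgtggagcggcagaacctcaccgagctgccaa
Tnfrsf14, chr4:154928028-154928327 (-): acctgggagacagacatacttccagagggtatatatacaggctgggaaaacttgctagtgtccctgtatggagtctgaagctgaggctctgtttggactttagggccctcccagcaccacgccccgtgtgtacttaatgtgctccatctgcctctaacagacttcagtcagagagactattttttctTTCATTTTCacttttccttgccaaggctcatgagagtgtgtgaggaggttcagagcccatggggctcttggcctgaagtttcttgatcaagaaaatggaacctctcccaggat
Tnfrsf12a, chr17:23677400-23677699 (-): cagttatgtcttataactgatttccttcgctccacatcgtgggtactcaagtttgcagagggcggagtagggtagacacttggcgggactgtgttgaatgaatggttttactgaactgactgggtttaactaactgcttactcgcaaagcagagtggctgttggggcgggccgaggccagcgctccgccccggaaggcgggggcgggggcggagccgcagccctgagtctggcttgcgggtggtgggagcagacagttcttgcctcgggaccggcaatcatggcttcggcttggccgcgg
Tnfsf13b had an AP-1 match 127 bases before the start and an ISRE match 16 bases before it. Another listed start of Tnfsf13b shared the AP-1 match, there 39 bases past the start, and not the ISRE match. In Tnfrsf9 the NF-kB match lay 42 bases and the AP-1 match 15 bases before the start; its other listed start had no match. The ISRE match of Tnfrsf14 was on the reverse strand, 63 bases before the start, and the Tnfrsf12a window had none of the 4 motifs. The 22 members had 26 listed starts, and a member was counted when any of its starts had a match. By that count 4 members had an AP-1 match, 5 an ISRE match, 3 an NF-kB match and 5 a TATA match. Over all 32851 RefSeq promoters of 300 bases, 7.81%, 8.56%, 5.82% and 13.6% held these motifs. The latter shares are per promoter and not per gene, so they are not directly comparable with the counts of members. AP-1 is its own reverse complement here and no 2 motifs overlapped in the windows shown. A match describes letters and is no evidence of a bound factor.

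Over the family, irradiation moved members in both directions, and in the 3 comparisons averaged over tumours the share that changed was close to that of all genes. On day 1 after gamma rays, with 30, 50 and 70 Gy averaged over the induced fibrosarcoma, nfsa, mmca and mca4, 6 of the 22 members with a test rose and 8 fell (limma, adjusted p under 0.05), or 63.6%, while 59.4% of all genes were called. The median change was 0.02 over the members and -0.04 over all genes on the log2 scale. On days 8 to 25, 11 of 23 rose and 7 fell against 73.6% of all genes called, with medians of 0.01 and -0.03. On day 20 after carbon ions in mmca and mca4, 9 of 23 rose and 7 fell against 71.0% of all genes, with medians of 0.07 and -0.14. None of these shares sets the family apart. Other comparisons lay further from the background on either side: 21.7% of members were called 6 h after carbon ions against 9.54% of all genes, and 56.5% late after gamma rays in mmca against 42.4%, but 34.8% on gamma day 1 in the induced fibrosarcoma against 50.9%. What follows is therefore about which members moved, how far and where. Many of the averaged gamma calls rest on counting the arrays of a group as replicates. With 1 mean value per group, 2 members were called on gamma day 1, both higher, and 5 on days 8 to 25, 2 higher and 3 lower. Of the averaged gamma results named below, 15 lost their call in that way.

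**Figure D1:**
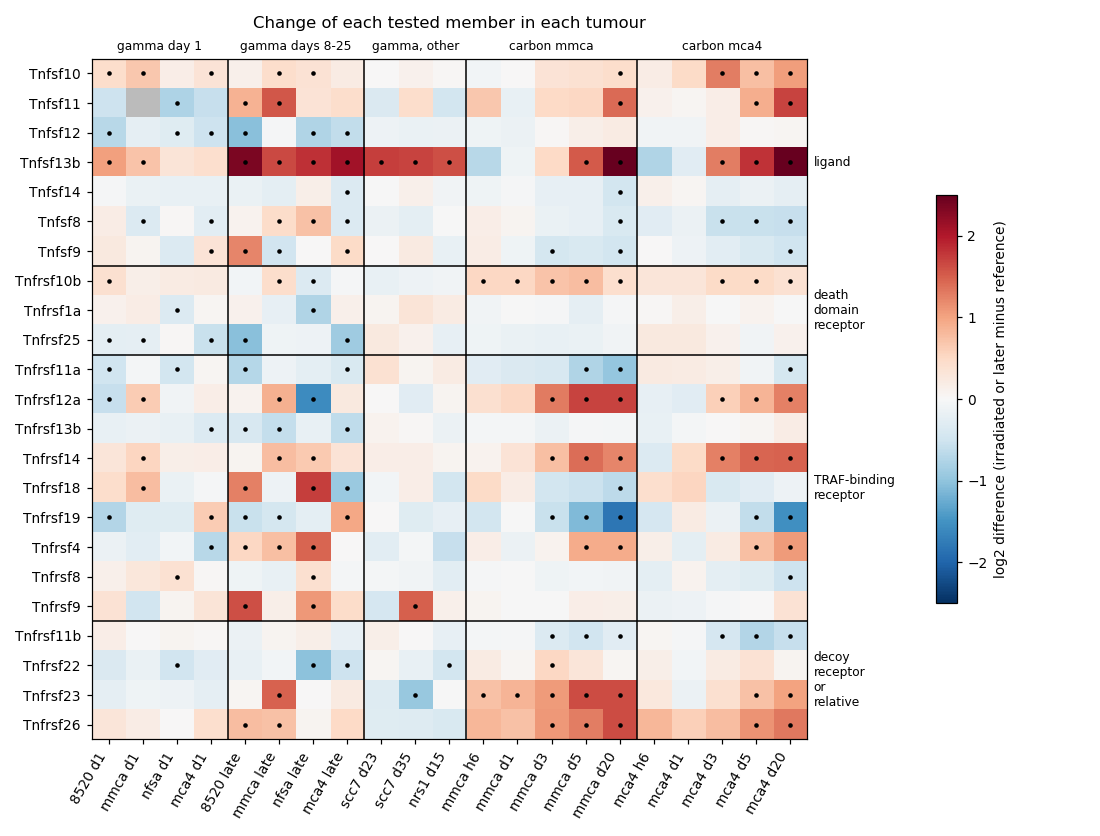
Heat map of the log2 change of the 23 tested TNF superfamily members (rows, grouped by role) in each comparison of irradiated with unirradiated or earlier arrays (columns); red is higher, blue is lower, a black dot marks an adjusted p under 0.05 and grey marks no test; the induced fibrosarcoma is marked by its code number. Tnfsf13b has dots in the late gamma columns of all 4 tumours with unirradiated arrays, and no other row has a dot in all 4 of these columns.

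Among the ligands, all 7 tested members were called on gamma days 8 to 25, 5 higher and 2 lower, with a median change of 0.29. On gamma day 1, 2 of 6 were higher and 2 lower, and on carbon day 20, 3 of 7 were higher and 3 lower. Of all genes 73.6% were called on gamma days 8 to 25, 59.4% on gamma day 1 and 71.0% on carbon day 20. Tnfsf10 and Tnfsf11 are among the 5 late rises, but their dimmer probes gave -0.30 and -0.29. Tnfsf13b stood out by size, Tnfsf10 rose on gamma day 1 and on carbon day 3, Tnfsf12 fell after gamma rays, and Tnfsf8, Tnfsf9 and Tnfsf11 depended on the tumour.

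Tnfsf13b encodes BAFF, the survival factor of B cells, which myeloid and stromal cells secrete. It was higher late after gamma rays in all 4 tumours that had unirradiated arrays. The unirradiated arrays had intensities of 0.616 and 0.655 in the induced fibrosarcoma, 0.693 and 0.868 in nfsa, 1.53 and 1.27 in mmca on day 9, and 1.32 and 1.02 in mca4. In the induced fibrosarcoma the arrays read 2.60, 3.52 and 2.96 on day 8, 7.16, 2.35 and 5.90 on day 16 and, after 50 Gy, 1.9, 2.62 and 2.91 on day 22. In mmca they read 2.26, 2.26 and 2.48 on day 9 after 30 Gy and 10.6, 7.55 and 6.86 on day 19 after 50 Gy. All of these lie above their own tumour's unirradiated arrays. In nfsa, 50 Gy gave 4.47, 5.20 and 4.68 on day 9 and 30 Gy gave 1.54, 1.62 and 1.60. In mca4, day 11 gave 5.68, 4.88 and 3.49 and day 25 gave 4.03, 7.13 and 5.26.

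The 27 late irradiated arrays (1.54 to 10.6) did not overlap the 8 unirradiated ones (0.616 to 1.53) for Tnfsf13b. The rise averaged 1.98 ± 0.099 on the log2 scale (SE; 3.95-fold; adjusted p = 1.69e-28), and was 2.35 in the induced fibrosarcoma, 1.83 in nfsa, 1.65 in mmca and 2.10 in mca4, each called. The F test of a difference among the 4 tumours, added after the data were seen, did not pass its threshold (adjusted p = 0.0872), and the highest and lowest of these changes were 0.70 apart. By day 41 the mca4 arrays had values of 2.43 and 2.43, still 1.07 ± 0.25 above the unirradiated ones (adjusted p = 0.000161). Unirradiated mmca itself was 1.01 ± 0.25 higher on day 9 than on day 1 (adjusted p = 0.00157), when its 2 arrays read 0.672 and 0.707. The other tumours were compared with unirradiated arrays of day 1, so time and irradiation cannot be told apart there.

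On day 1 the Tnfsf13b change was smaller, 0.61 ± 0.10 over the 4 tumours (adjusted p = 2.89e-07). It was called in the induced fibrosarcoma, where irradiated arrays read 1.11 to 1.5, and in mmca (0.70, adjusted p = 0.00473; 0.67 and adjusted p = 0.0666 without unirradiated replicate 1), but not in nfsa (0.32, adjusted p = 0.233) or mca4 (0.41, adjusted p = 0.0891). By dose the mean change was 0.41 at 30 Gy, 0.90 at 50 Gy and 0.53 at 70 Gy, each called and with no order by dose. In gamma scc7 the day 8 arrays read 3.69 and 3.39, against 9.86 and 14.0 on day 23 and 11.2 and 11.7 on day 35, a difference of 1.73 ± 0.25 on day 23 (adjusted p = 6.81e-07). In gamma nrs1 the day 8 arrays read 1.15, 1.36 and 0.941 and the day 15 arrays 2.17, 4.16 and 4.74 (1.62 ± 0.20, adjusted p = 6.33e-09). With missing values set to the floor in all genes, Tnfsf13b lost its call in scc7 on days 23 and 35 (limma, adjusted p = 0.0529 and 0.0546) and in mmca on day 1 (adjusted p = 0.248), with the same estimates, while nrs1 kept it (adjusted p = 0.00778). Tnfsf13b was the only 1 of 23 members called in scc7 on day 23, where 2.25% of all genes were called. On day 35 it was called beside Tnfrsf9 and Tnfrsf23 (3.38% of all genes), and in nrs1 beside Tnfrsf22 (12.8%). The Tnfrsf23 call on day 35 was lost without day 8 replicate 1 (-0.86, adjusted p = 0.0824), and that of Tnfrsf22 with missing values at the floor (adjusted p = 0.0620).

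**Figure D2:**
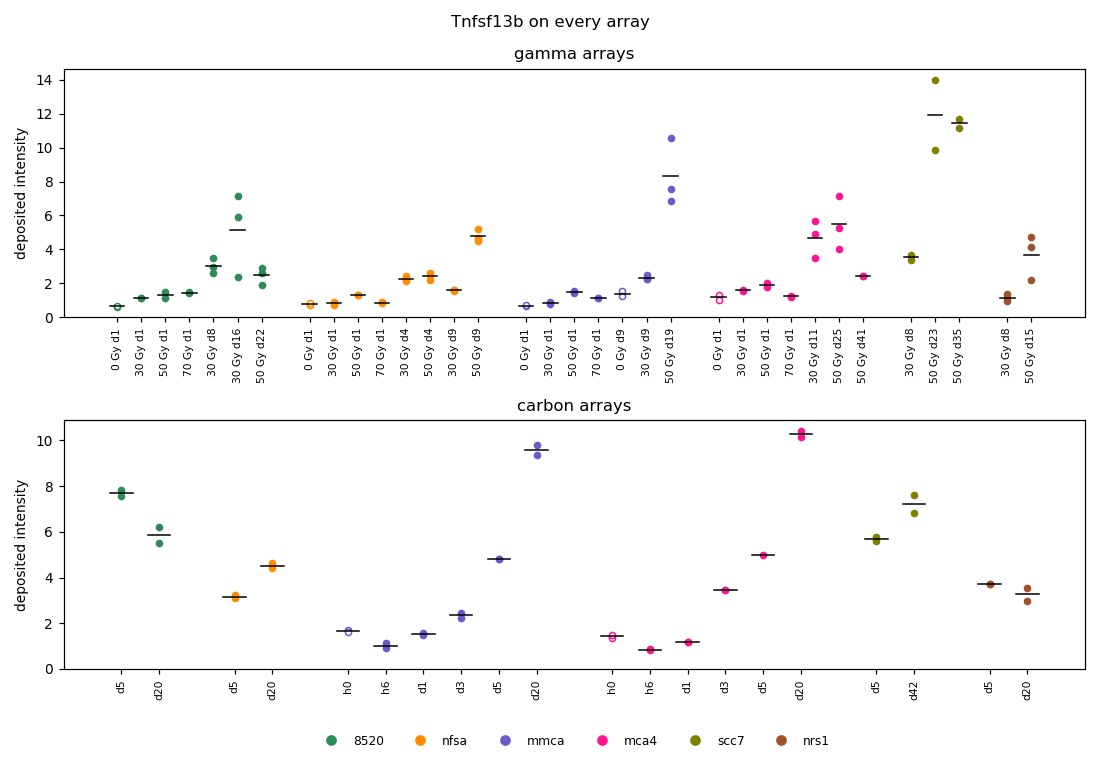
Tnfsf13b intensity (linear axis) on every array by tumour and group, gamma rays in the upper panel and carbon ions in the lower; open circles are unirradiated arrays, filled circles irradiated ones and bars group means. All late gamma points of the induced fibrosarcoma, nfsa, mmca and mca4 lie at 1.54 or above, and the carbon points of mmca and mca4 climb from between 1.37 and 1.70 at 0 h to between 9.36 and 10.4 on day 20.

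After carbon ions Tnfsf13b first fell and then rose in both mammary carcinomas. At 0 h its arrays read 1.70 and 1.61 in mmca and 1.37 and 1.49 in mca4, and at 6 h 0.915, 1.14, 0.874 and 0.819. The 6 h fall averaged -0.73 ± 0.17 (adjusted p = 0.00272) without overlap, although neither tumour passed the test alone (adjusted p = 0.0861 and 0.0940). Of the 23 members 5 were called at 6 h, 3 higher and 2 lower, against 9.54% of all genes. On day 1 Tnfsf13b differed by -0.20 (adjusted p = 0.541), on day 3 by 0.89, on day 5 by 1.67, with 1 mca4 array missing, and on day 20 by 2.69 ± 0.17 (6.45-fold; adjusted p = 1.02e-22). The day 20 arrays read 9.36 and 9.81 in mmca and 10.4 and 10.2 in mca4. In the tumours with no unirradiated carbon arrays, day 5 already stood at 7.83 and 7.56 in the induced fibrosarcoma, 3.24 and 3.09 in nfsa, 3.71 and 3.70 in nrs1 and 5.62 and 5.77 in scc7. The later day there differed by -0.40 to 0.51 and was not called in any of these 4 tumours (limma, adjusted p of 0.143 to 0.581).

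Averaged over tumours, most markers of infiltrating cells other than B cells rose late beside Tnfsf13b, but macrophage markers did not do so in every tumour. In these bulk samples fewer or more cells of a type and less or more RNA per cell cannot be told apart. On gamma days 8 to 25, 5 of 6 macrophage markers, 3 of 4 general leukocyte markers, 4 of 4 T cell and 5 of 5 NK cell markers rose. In that comparison 73.6% of all genes were called in either direction. The macrophage sum was 238 to 898 on irradiated and 139 to 618 on unirradiated arrays. In the induced fibrosarcoma, where the Tnfsf13b estimate was highest, the macrophage sum was 411 to 596 after irradiation and 584 to 618 before, with 2 of 6 markers up and 2 down. In late gamma mca4 that sum was 238 to 481, against 334 to 355 unirradiated. On carbon day 20 all 6 macrophage markers rose, with sums of 649 to 815 against 220 to 239. So did 6 of 6 fibroblast and 5 of 5 skeletal muscle markers, where 71.0% of all genes were called in either direction. In gamma scc7 on day 23 none of the 6 macrophage markers was called by limma, with sums of 914 to 1055 against 707 to 846. B cell marker sums were 7.73 to 13.5 late after gamma rays and 7.14 to 13.1 without irradiation. The part of these cells in the Tnfsf13b values was not tested.

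Tnfsf10 encodes TRAIL, which triggers apoptosis through death receptors. It rose by 0.41 ± 0.069 on gamma day 1 (adjusted p = 5.68e-07), by nearly the same amount at 30, 50 and 70 Gy (0.38, 0.41 and 0.43). In mmca the unirradiated arrays read 1.98 and 2.03 and the irradiated ones 2.71 to 3.82, without overlap. The rise was called in the induced fibrosarcoma (0.44), mmca (0.67) and mca4 (0.35), while nfsa, whose unirradiated level was the highest at 5.60 and 5.40, gave 0.17 (adjusted p = 0.361). The call in the induced fibrosarcoma was lost without unirradiated replicate 1 (0.34, adjusted p = 0.139), and that in mca4 without any 1 of 5 of its 8 arrays (0.25 to 0.44 over all 8). By days 8 to 25 the mean change was 0.29, called in nfsa and mmca. Without unirradiated day 9 replicate 2 the late mmca change was 0.21 (adjusted p = 0.414), and without either unirradiated array the nfsa change was not called (0.39 and 0.33, adjusted p = 0.0745 and 0.133). After carbon ions Tnfsf10 was 0.81 higher on day 3, chiefly in mca4 (1.91 and 2.17 at 0 h, 4.80 and 5.06 on day 3; 1.27, adjusted p = 1.93e-08), and 0.74 ± 0.12 higher on day 20 (adjusted p = 9.12e-08). In the carbon-treated induced fibrosarcoma it fell between days 5 and 20, from 7.91 and 8.36 to 5.29 and 4.91 (-0.67, adjusted p = 0.000692). A much dimmer Tnfsf10 probe showed -0.09 on day 1, -0.30 late and -0.01 on carbon day 20, and with the mean of both probes none of these 3 changes was called (adjusted p = 0.554, 0.127 and 0.401), nor were the changes in single tumours on gamma day 1 and days 8 to 25 or the carbon fall.

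Tnfsf12, encoding TWEAK, the ligand of the receptor Tnfrsf12a, fell after gamma rays. In the induced fibrosarcoma its unirradiated arrays read 3.02 and 3.04, the day 1 irradiated arrays 1.61 to 2.25 and the late ones 1.19 to 1.67, with no overlap. The mean change was -0.43 ± 0.050 on day 1 (limma, adjusted p = 2.31e-11) and -0.61 ± 0.050 on days 8 to 25 (adjusted p = 6.22e-18). With 1 mean value per group no member was called lower on day 1, so the day 1 fall of Tnfsf12 lost its call there. The late fall was called in the induced fibrosarcoma (-1.04), nfsa (-0.75, with 1 of 6 arrays missing) and mca4 (-0.62; adjusted p = 0.111 with missing values at the floor). In mmca, the tumour with unirradiated arrays of day 9, it was -0.03 (adjusted p = 0.863), and unirradiated mmca itself fell by 0.35 from day 1 to day 9 (adjusted p = 0.0331). After carbon ions Tnfsf12 arrays of mmca and mca4 read 0.980 to 1.03 at 0 h and 1.03 to 1.18 on day 20 (0.13, adjusted p = 0.178). Tnfsf14, encoding LIGHT, changed little: -0.15 on gamma day 1, -0.16 late and -0.33 on carbon day 20, each called.

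Tnfsf9, encoding the T cell costimulator 4-1BB ligand, rose late after gamma rays in the induced fibrosarcoma and went in different directions elsewhere. In the induced fibrosarcoma it read 2.10 and 2.53 unirradiated, 3.47 to 4.38 on day 8, 5.36 to 6.26 on day 16 and 4.96 to 8.45 on day 22, a late change of 1.23 ± 0.14 (adjusted p = 2.33e-12) with no overlap. In nfsa the doses went apart on day 9: 30 Gy gave 9.02, 6.49 and 6.43 and 50 Gy gave 2.68, 2.36 and 3.02, against 4.20 and 4.57 unirradiated (0.72 and -0.71, both called; 0.00 over both). It fell in mmca (-0.47, adjusted p = 0.00539) and rose in mca4 (0.48, adjusted p = 0.00328, with 1 of 6 arrays missing). The mmca fall was not called without unirradiated day 9 replicate 1 (-0.27, adjusted p = 0.276) and ranged from -0.67 to -0.27 with 1 array left out. With missing values at the floor the mca4 change turned to -0.13 (adjusted p = 0.777) and the mmca call was lost (adjusted p = 0.303). After carbon ions Tnfsf9 rose from day 5 to day 20 in the induced fibrosarcoma (2.77 and 2.62 to 5.14 and 4.82) and nfsa (3.40 and 3.16 to 7.25 and 8.21), but fell by 0.48 in mmca and mca4 on day 20 (adjusted p = 0.000405). With missing values at the floor the last of these changes and the carbon rise in the induced fibrosarcoma were not called (limma, adjusted p = 0.141 and 0.0794). Its receptor Tnfrsf9 also rose late after gamma rays in the induced fibrosarcoma, by 1.60 ± 0.26 (adjusted p = 1.24e-07; 1.21 and 1.49 unirradiated, 2.48 to 8.60 irradiated), and in nfsa by 1.08. In mmca (0.14) and mca4 (0.46) Tnfrsf9 was not called.

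Tnfsf11 encodes RANKL, the osteoclast differentiation factor, and showed the widest swings in the induced fibrosarcoma. Its arrays read 1.75 and 1.65 unirradiated, 0.850, 1.12 and 0.789 on day 8, 12.6, 4.00 and 13.1 on day 16 and 5.06, 2.75 and 4.02 on day 22. Day 8 was thus below the unirradiated arrays (-0.90 ± 0.34, adjusted p = 0.0187) and days 16 and 22 above them (2.36 and 1.17). In mmca it rose late by 1.55 ± 0.30 (adjusted p = 2.17e-05). On carbon day 20 the arrays read 0.717 to 0.853 against 0.249 to 0.297 at 0 h (1.55 ± 0.26, adjusted p = 3.55e-07). Between carbon days 5 and 20 Tnfsf11 rose in the induced fibrosarcoma (1.62 and 1.57 to 3.74 and 3.51) and nfsa (1.73 and 1.68 to 4.25 and 4.90), and fell in nrs1 (0.761 and 0.959 to 0.300 and 0.522). A dimmer Tnfsf11 probe gave -0.29 over the 4 tumours late after gamma rays (0.18 in the induced fibrosarcoma and -0.75 in mmca) and -0.21 on carbon day 20, so the late mmca rise and the carbon day 20 rise belong to 1 probe. Between carbon days 5 and 20 it moved the same way by less in the induced fibrosarcoma (0.57) and nfsa (0.42). With the mean of both probes the nrs1 fall was not called (-0.49, adjusted p = 0.212). Both mmca arrays of 30 Gy on day 1 lacked a value, and no mean over 4 tumours exists for day 1.

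Tnfsf8, encoding CD30 ligand, separated the tumours more than the treatments. Its values come from 1 probe with a median intensity of 5.09. A second probe, with values on 86.8% of arrays, was much dimmer (median 0.601) and was not used. Unirradiated arrays read 8.74 and 10.4 in mmca and 9.22 and 9.72 in mca4, against 2.51 and 2.40 in the induced fibrosarcoma and 3.01 and 3.01 in nfsa. Late after gamma rays it rose in nfsa (0.72 ± 0.11, adjusted p = 2.72e-08; 4.45 to 5.63) and mmca (0.45) and fell in mca4 (-0.34, adjusted p = 0.00435). On carbon day 20 it fell by 0.47 in mmca and mca4 (adjusted p = 7.35e-06), from 7.78 to 8.59 down to 5.43 to 6.24 without overlap. In unirradiated mmca it was 0.60 lower on day 9 than on day 1 (adjusted p = 0.000449).

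The death domain receptors behaved differently from each other. Tnfrsf10b is the mouse receptor of TRAIL and a known p53 target. It rose by 0.25 ± 0.059 on gamma day 1 (adjusted p = 0.00025), with changes of 0.05 at 30 Gy (adjusted p = 0.535), 0.38 at 50 Gy and 0.30 at 70 Gy, and 70 Gy was 0.25 above 30 Gy (adjusted p = 0.00302). In the induced fibrosarcoma the unirradiated arrays read 2.96 and 2.85, those of 30 Gy 3.33 and 3.43, those of 50 Gy 3.67 and 4.65 and those of 70 Gy 4.05 and 4.02. Late after gamma rays the mean change was 0.00 (adjusted p = 0.986), with -0.34 in nfsa (adjusted p = 0.0102) and 0.45 in mmca against its day 9 controls (adjusted p = 0.00132). Unirradiated mmca had itself fallen by 0.49 between days 1 and 9 (adjusted p = 0.00957), and against the day 1 controls Tnfrsf10b was at -0.11 on day 9 (adjusted p = 0.549) and 0.03 on day 19 (adjusted p = 0.879). The nfsa fall was not called with the replicate number as a block (-0.26, adjusted p = 0.0537), nor without unirradiated replicate 2 (-0.26, adjusted p = 0.164). After carbon ions Tnfrsf10b was already higher at 6 h, with 3.21 to 3.61 against 2.40 to 2.82 at 0 h in mmca and mca4 (0.41 ± 0.10, adjusted p = 0.00464). It stayed higher at each later time, by 0.42, 0.59, 0.63 and 0.40 on days 1, 3, 5 and 20, each called and each without overlap. On carbon day 1 Tnfrsf10b and Tnfrsf26 were the only 2 of 23 members called, against 8.00% of all genes.

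Of the 6 p53 target genes tested beside them (Cdkn1a and Mdm2 among those listed), all 6 rose on gamma day 1 with a median of 1.45. The change of Tnfrsf10b on that day was 0.25. Tnfrsf1a, the main TNF receptor of most cells, gave 0.00 on gamma day 1 (adjusted p = 0.993) and -0.01 on carbon day 20 (adjusted p = 0.919). Late after gamma rays Tnfrsf1a fell in nfsa, from 18.7 and 22.5 to between 9.73 and 14.7 (-0.76 ± 0.13, adjusted p = 7.81e-07; not called with missing values at the floor, adjusted p = 0.280). Its late changes of 0.10, -0.21 and 0.13 in the induced fibrosarcoma, mmca and mca4 were not called, but all 3 were with quantile normalization (0.25, -0.36 and 0.26).

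Tnfrsf25 encodes DR3, a death domain receptor of T cells. Its arrays read 5.34 and 5.93 in the unirradiated induced fibrosarcoma and 2.44 to 3.06 late after irradiation (-1.04 ± 0.080, adjusted p = 1.30e-18), and 4.79 and 4.98 in unirradiated mca4 against 2.24 to 3.13 late (-0.89 ± 0.084, adjusted p = 7.61e-15). Neither range overlapped. In mmca (-0.11) and nfsa (-0.13) the change was not called, and the difference among the 4 tumours passed its test (adjusted p = 6.29e-13). Unirradiated mmca showed a fall of its own between days 1 and 9, from 3.87 and 3.75 to 2.51 and 2.91 (-0.49, adjusted p = 0.000222). On carbon day 20 it differed by 0.02 (adjusted p = 0.847). Late after gamma rays the 4 T cell markers tested rose by a median of 0.90 over the 4 tumours together. In the induced fibrosarcoma the T cell marker sum was 4.3 to 48.3 late and 5.1 to 5.2 unirradiated. In mca4 it was 7.7 to 23 late and 9.5 to 10.1 unirradiated. The part of T cells in the Tnfrsf25 values was not tested.

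Tnfrsf12a encodes Fn14, the TWEAK receptor of injured and growing tissue, and its day 1 values after gamma rays differed by dose. In nfsa it read 19.2 and 21.9 unirradiated, 31.3 and 37.6 at 30 Gy, 13.4 and 14.1 at 50 Gy and 15.9 and 14.5 at 70 Gy. The same groups of the induced fibrosarcoma read 24.4 and 25.1, 30.4 and 27.2, 13.4 and 15.1, and 10.4 and 11.6. In both fibrosarcomas 30 Gy lay above and 50 and 70 Gy below the unirradiated arrays, but not each of these steps passed the test. The 30 Gy rise in the induced fibrosarcoma and the 50 Gy fall in nfsa were not called by limma. Of all genes 48.6% and 7.33% were called in these 2 comparisons. In mmca, 6.84 and 7.48 unirradiated, only 1 array of 50 Gy was not above both: 19.1 and 18.4 at 30 Gy, 7.28 and 8.28 at 50 Gy, and 9.52 and 9.55 at 70 Gy. In mca4, 10.2 and 7.0 unirradiated, 30 Gy gave 12.1 and 10.9, 50 Gy 9.28 and 9.31 and 70 Gy 7.72 and 8.25, the last 2 groups between its unirradiated arrays.

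Over these 4 tumours the Tnfrsf12a change on day 1 was 0.70 ± 0.10 at 30 Gy (adjusted p = 2e-08), -0.28 at 50 Gy (adjusted p = 0.022) and -0.32 at 70 Gy (adjusted p = 0.00599). The difference of 70 from 30 Gy was -1.02 ± 0.10 (adjusted p = 4.09e-13), called in the induced fibrosarcoma (-1.39), nfsa (-1.17) and mmca (-0.97) but not in mca4 (-0.53, adjusted p = 0.0818). 10 of 22 members differed between 70 and 30 Gy, 3 higher and 7 lower, against 50.2% of all genes. The separate comparisons of each dose with the unirradiated arrays were added after the data were seen: 13 of 22 members were called at 30 Gy (63.1% of all genes), 10 of 23 at 50 Gy (43.6%) and 16 of 23 at 70 Gy (61.0%). Whether arrays of a dose were handled together is not given in the sources used here. Among the genes kept, 0.175% to 0.338% of values were missing on the 70 Gy arrays of day 1. The share was higher without overlap at 30 Gy (0.603% to 1.37%) and on unirradiated arrays (0.552% to 1.27%). At 50 Gy it was 0.231% to 1.735%. Array medians overlapped, at 2.623 to 2.865 for 70 Gy and 2.502 to 2.825 for 30 Gy. The part of such array differences in the comparisons of doses was not tested for any member.

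**Figure D3:**
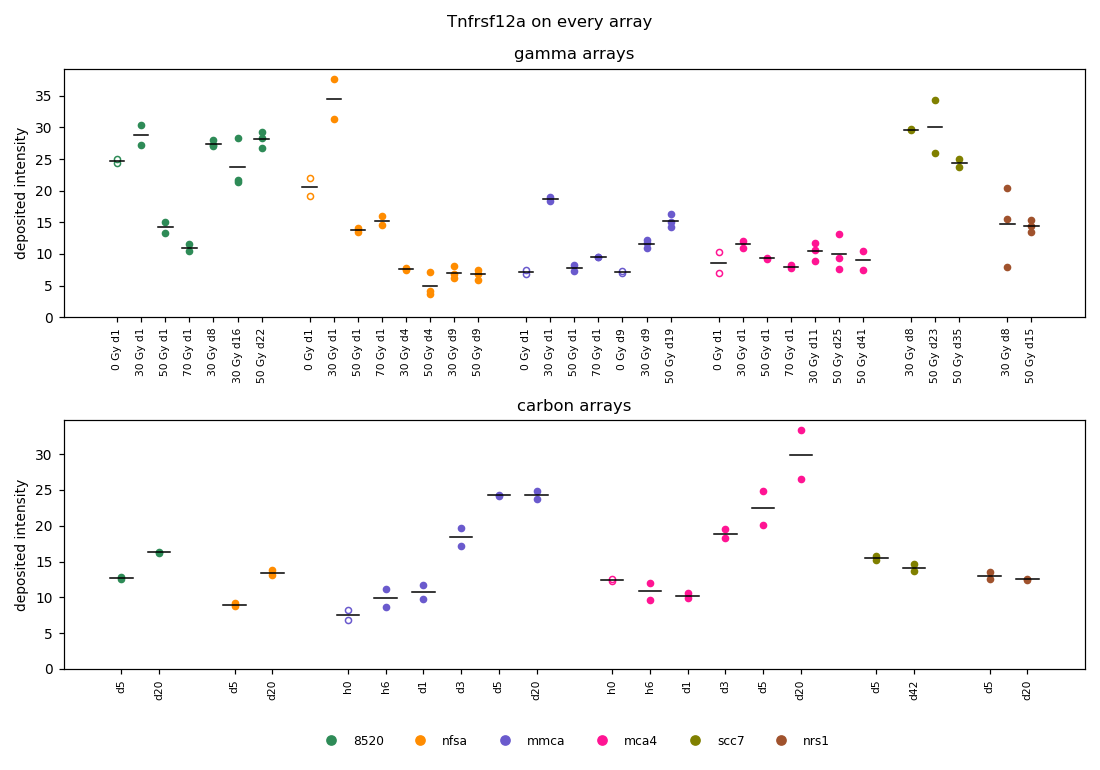
Tnfrsf12a intensity (linear axis) on every array by tumour and group, drawn as in the plot of Tnfsf13b. On gamma day 1 the 30 Gy arrays of the induced fibrosarcoma and nfsa (27.2 to 37.6) are above and those of 50 and 70 Gy (10.4 to 15.9) below the unirradiated ones, and on carbon day 20 mmca and mca4 reach 23.8 to 33.4.

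Later, Tnfrsf12a went opposite ways in different tumours. In nfsa the day 9 arrays read 5.88 to 8.13, below the unirradiated 19.2 and 21.9 (-1.58 ± 0.17, adjusted p = 1.48e-12), whereas mmca rose (0.89 ± 0.17, adjusted p = 1.33e-05). It was not called in the induced fibrosarcoma (0.09) or mca4 (0.25), and the 4 changes differed (adjusted p = 9.67e-14). After carbon ions Tnfrsf12a was higher from day 3 (0.95) over day 5 (1.27) to day 20 (1.48 ± 0.15, adjusted p = 1.70e-14). The mmca arrays went from 6.84 and 8.19 to 23.8 and 24.8 and the mca4 arrays from 12.3 and 12.6 to 33.4 and 26.5. On that day skeletal muscle marker sums were 262 to 430 against 59.1 to 82.6 and fibroblast sums 234 to 319 against 77.9 to 89.4. In late gamma mmca 4 of 5 muscle markers rose as well, and in nfsa none of 5 was called. The part of muscle or fibroblasts in the Tnfrsf12a values was not tested.

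**Figure D4:**
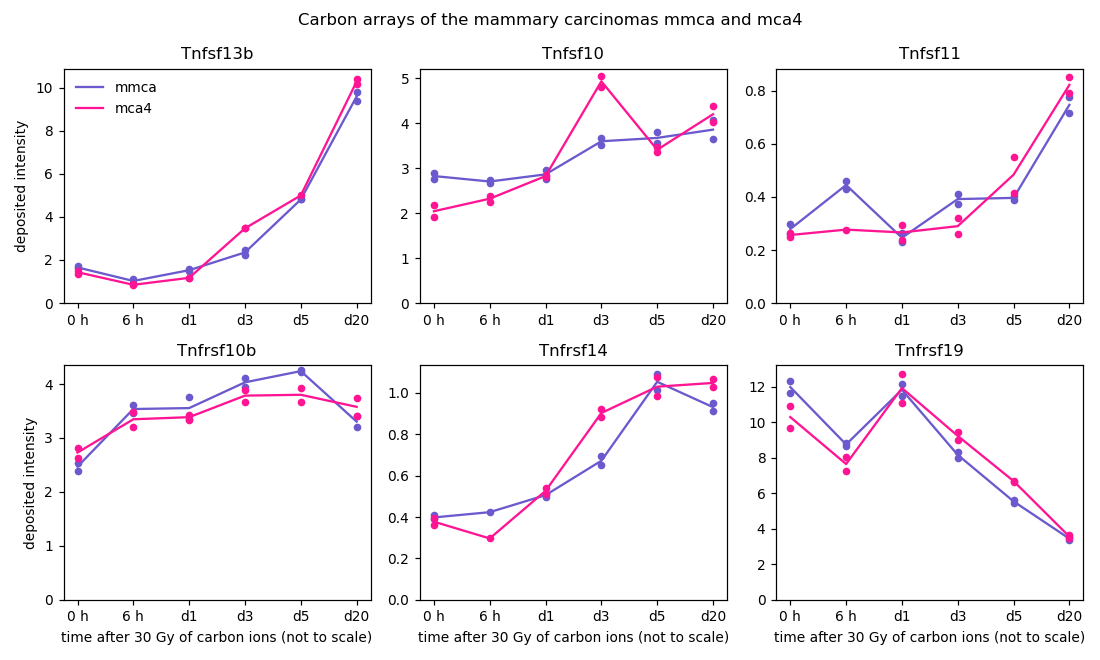
Intensity (linear axis) of 6 members in mmca and mca4 at 0 h, 6 h and days 1, 3, 5 and 20 after 30 Gy of carbon ions; points are arrays and lines join group means. Tnfsf13b dips at 6 h and then climbs, Tnfrsf10b is up from 6 h on, Tnfrsf14, Tnfsf10 and Tnfsf11 rise later and Tnfrsf19 declines from day 3 to day 20.

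The costimulatory receptors Tnfrsf4 (OX40) and Tnfrsf18 (GITR), both typical of activated and regulatory T cells, moved together in nfsa. Of the late groups of nfsa, 50 Gy on day 9 stood highest. Tnfrsf4 read 0.889 and 1.09 unirradiated and 6.71, 5.61 and 3.30 on that day (2.34 ± 0.24, adjusted p = 1.89e-13). Tnfrsf18 read 1.63 and 1.41 unirradiated and 13.1, 10.5 and 7.10 (2.71 ± 0.25, adjusted p = 3.88e-15). At 30 Gy on day 9 both were nearer the unirradiated level, with Tnfrsf4 at 1.17 to 1.95 and Tnfrsf18 at 2.11 to 3.45. The late changes in the induced fibrosarcoma were 0.51 for Tnfrsf4 and 1.25 for Tnfrsf18, both called. In the mammary carcinomas they parted: Tnfrsf4 rose in mmca (0.76) and was at 0.01 in mca4, while Tnfrsf18 was at -0.13 in mmca (adjusted p = 0.665) and fell in mca4 from 13.4 and 12.5 to between 5.58 and 8.06 (-0.93 ± 0.22, adjusted p = 0.000195). A dimmer Tnfrsf18 probe gave 0.35 in mca4, so its fall there belongs to 1 probe. In late nfsa the T cell marker sum was 6.72 to 47.9 against 5.58 to 5.75 unirradiated, and the part of T cells was not tested.

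Both receptors fell between carbon day 5 and the last day in 3 of the 4 tumours without unirradiated arrays. Tnfrsf18 went from 11.7 and 12.4 to 2.84 and 3.05 in the induced fibrosarcoma (-2.03 ± 0.27, adjusted p = 3.67e-09), from 9.14 and 9.18 to 2.70 and 3.00 in nfsa and from 16.9 and 19.9 to 5.92 and 5.75 in scc7. Tnfrsf4 fell there by 1.80, 1.22 and 1.49. In nrs1 Tnfrsf4 rose instead (3.65 and 3.79 to 7.02 and 8.04; 1.01 ± 0.26, adjusted p = 0.00133) and Tnfrsf18, brightest in this tumour at 30.2 to 38.5 on carbon arrays, was not called (-0.26, adjusted p = 0.489). In the same comparisons 4 of 4 T cell markers fell in the induced fibrosarcoma, 3 of 4 in nfsa, 4 of 4 in scc7 and none was called in nrs1, while all 5 NK cell markers fell in the induced fibrosarcoma, nfsa and scc7 and 3 of 5 in nrs1. Of the 23 members 10 were called in the carbon-treated induced fibrosarcoma (44.9% of all genes), 5 in nfsa (19.9%), 4 in nrs1 (35.7%) and 8 in scc7 (32.5%); all 8 in scc7 fell.

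Tnfrsf14 encodes HVEM, the receptor of LIGHT on lymphocytes and other cells. On carbon day 20 it rose from 0.361 to 0.408 up to 0.913 to 1.07 in mmca and mca4 (1.35 ± 0.14, adjusted p = 2.02e-13), after 1.01 on day 3 and 1.43 on day 5. Late after gamma rays it rose by 0.46 ± 0.081 (adjusted p = 7.54e-07), called in nfsa (0.65) and mmca (0.76). In the carbon-treated induced fibrosarcoma Tnfrsf14 fell from 3.70 and 3.59 on day 5 to 0.822 and 0.779 on day 20 (-2.19 ± 0.20, adjusted p = 1.32e-14), a 4.55-fold drop, and in carbon scc7 from 4.62 and 4.70 to 1.52 and 1.64 (-1.56). These 2 falls occurred beside those of the T and NK cell markers given above.

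Tnfrsf9 needs a separate word for scc7. On gamma day 8 its arrays read 10.2 and 7.78, on day 23 7.27 and 6.08, and on day 35 8.55 and 73.9. The day 35 difference of 1.5 ± 0.33 passed the test (adjusted p = 0.00263), but without the array of 73.9 (replicate 2) it was -0.06 (adjusted p = 0.938) and without replicate 1 it was 3.05. Without day 8 replicate 2 it was not called either (adjusted p = 0.0883). The size of the change therefore rests on 1 array. In mmca and mca4 Tnfrsf9 was not called on carbon day 20 (0.25, adjusted p = 0.331), and it fell in carbon scc7 between days 5 and 42 (5.11 and 4.87 to 2.53 and 2.41; -1.01, adjusted p = 0.0131).

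Tnfrsf19 encodes TROY, a receptor of epithelial and stem cell compartments, and was bright in the mammary carcinomas only. Unirradiated gamma arrays read 8.03 and 7.44 in mmca, 2.78 and 3.6 in mca4, 0.679 and 0.550 in the induced fibrosarcoma and 0.481 and 0.490 in nfsa. In nrs1 and scc7 no array exceeded 0.550. After carbon ions its mean over both mammary tumours fell by 0.44 at 6 h (adjusted p = 0.0205), stood at 0.10 on day 1 and fell by 0.35 on day 3, 0.87 on day 5 and 1.67 ± 0.13 on day 20 (adjusted p = 9.75e-19), from 9.69 to 12.3 at 0 h down to 3.37 to 3.63. The epithelial marker sums rose at the same time, from 193 to 224 up to 273 to 337.

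Gamma rays did not give the same picture for Tnfrsf19. On day 1, 30 Gy lowered it in mmca to 3.38 and 2.96 (-1.29 ± 0.19, adjusted p = 4.51e-08) and raised it in mca4 to 6.39 and 6.40 (1.01 ± 0.19, adjusted p = 7.10e-06). At 50 Gy mmca read 7.96 and 7.52 and at 70 Gy 9.99 and 9.94, near or above its unirradiated arrays. Late arrays of mca4 (4.84 to 7.82) were above its unirradiated ones (0.97 ± 0.15, adjusted p = 7.08e-08), and those of mmca fell (-0.45, adjusted p = 0.013; -0.29 and adjusted p = 0.303 without unirradiated day 9 replicate 2). The day 1 changes differed among the 4 tumours (adjusted p = 2.35e-06).

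Tnfrsf11a and Tnfrsf11b are the signalling receptor and the soluble decoy receptor (osteoprotegerin) of RANKL. Tnfrsf11a fell by 0.24 on gamma day 1, by 0.37 ± 0.069 on days 8 to 25 (adjusted p = 2.50e-06) and by 0.70 ± 0.12 on carbon day 20 (adjusted p = 5.47e-07), where arrays went from 31.0 to 49.0 down to 22.0 to 25.4. Its dimmer probe moved the same way, by -0.51, -0.56 and -1.29. In nrs1 Tnfrsf11a was dim throughout, at 3.09 to 8.95. Tnfrsf11b fell after carbon ions by 0.38 on day 3, 0.60 on day 5 and 0.42 ± 0.081 on day 20 (adjusted p = 3.93e-06), and was at -0.04 late after gamma rays (adjusted p = 0.497). On gamma day 1 Tnfrsf11b rose at 30 Gy (0.26) and fell at 50 Gy (-0.14).

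Tnfrsf22, Tnfrsf23 and Tnfrsf26 are neighbouring, closely related mouse genes, the first of them decoys for TRAIL, and probes may not separate them fully, so their values are uncertain. Tnfrsf26 was 19.8 and 17.6 in unirradiated nfsa and 0.807 to 1.01 in the unirradiated induced fibrosarcoma, mmca and mca4, a difference of 4.26 ± 0.31 between nfsa and the induced fibrosarcoma (19.1-fold; adjusted p = 1.16e-19). After carbon ions Tnfrsf26 rose at every time tested, by 0.83 at 6 h, 0.66 on day 1 (adjusted p = 0.0438), 0.93 on day 3, 1.20 on day 5 and 1.48 ± 0.22 on day 20 (adjusted p = 1.04e-08). The day 1 call was lost when any 1 of the 8 arrays was left out, with changes of 0.58 to 0.75, with quantile normalization (adjusted p = 0.0607) and with missing values at the floor (adjusted p = 0.0527). Tnfrsf23 rose by 1.32 ± 0.15 on carbon day 20 (adjusted p = 1.22e-12) and by 1.47 late in gamma mmca (adjusted p = 3.13e-11). A second Tnfrsf23 probe gave 0.70 and 0.88 there, but 1.27 against 0.05 in the late induced fibrosarcoma and -0.71 against 0.01 in late nfsa. Tnfrsf22 fell late in nfsa from 5.34 and 4.32 to between 1.95 and 2.89 (-1.03 ± 0.16, adjusted p = 1.60e-07) and in mca4 (-0.52; -0.39 and adjusted p = 0.123 without unirradiated replicate 1).

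Tnfrsf13b, encoding TACI, a receptor of BAFF on B cells, was lower late after gamma rays, when its ligand was higher. It read 0.541 to 0.675 on the unirradiated day 9 arrays of mmca and 0.340 to 0.486 late after irradiation, and fell by 0.46 ± 0.065 over the 4 tumours (adjusted p = 2.76e-09). The fall was called in the induced fibrosarcoma (-0.41; adjusted p = 0.0764 with missing values at the floor), mmca (-0.60) and mca4 (-0.64) but not in nfsa (-0.18, adjusted p = 0.227), and on carbon day 20 the change was 0.07 (adjusted p = 0.572). All of these intensities are near the lower end of the arrays. Tnfrsf8 (CD30) rose by 0.21 on gamma day 1 and fell by 0.30 on carbon day 20 (adjusted p = 0.0211).

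The unirradiated tumours differed widely from each other before any treatment. Of the 23 members 19 differed among the unirradiated induced fibrosarcoma, nfsa, mmca and mca4, where 86.6% of all genes did. The largest spreads were those of Tnfrsf26 (4.50 on the log2 scale between the highest and lowest tumour), Tnfsf11 (4.06), Tnfrsf19 (3.99), Tnfrsf18 (3.48) and Tnfsf8 (1.96). Tnfrsf11a (adjusted p = 0.512), Tnfrsf11b (adjusted p = 0.505), Tnfrsf13b (adjusted p = 0.190) and Tnfsf14 (adjusted p = 0.367) did not pass. On day 1 the response to gamma rays differed among the tumours for 8 of 22 members, against 55.9% of all genes, and on days 8 to 25 for 19 of 23, against 79.2%. The exceptions late were Tnfsf13b, Tnfsf10, Tnfrsf13b and Tnfrsf26.

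**Figure D5:**
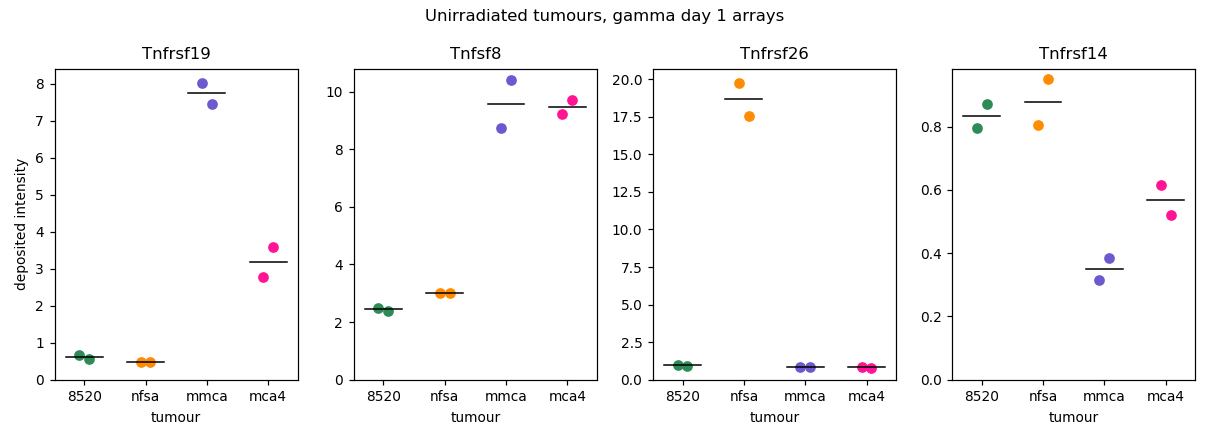
Intensity (linear axis) of Tnfrsf19, Tnfsf8, Tnfrsf26 and Tnfrsf14 on the 2 unirradiated gamma day 1 arrays of the induced fibrosarcoma, nfsa, mmca and mca4; points are arrays and bars are means. Tnfrsf19 and Tnfsf8 are high in the mammary carcinomas, Tnfrsf26 is high in nfsa (19.8 and 17.6) and Tnfrsf14 is higher in the fibrosarcomas.

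In single comparisons from which 1 or more members are named, the shares of all genes called were 58.2%, 65.9% and 65.2% in the induced fibrosarcoma on days 8, 16 and 22, 51.0% and 59.1% in nfsa on day 9 at 30 and 50 Gy, and 56.3% in mca4 on day 41. They were 41.8% and 43.4% in mmca and mca4 on day 1 at 30 Gy, 20.1% in carbon mca4 on day 3 and 45.5% between unirradiated nfsa and the induced fibrosarcoma. Between 70 and 30 Gy they were 24.0% in the induced fibrosarcoma, 28.7% in mmca and 27.5% in nfsa. By tumour, the counts of members called on gamma day 1 were 8 of 23 in the induced fibrosarcoma (50.9% of all genes), 7 of 22 in mmca (33.1%), 6 of 23 in nfsa (29.0%) and 8 of 23 in mca4 (42.8%). On days 8 to 25 they were 12 in the induced fibrosarcoma (67.7% of all genes), 13 in mmca (42.4%), 13 in nfsa (57.5%) and 11 in mca4 (63.7%), of 23 each. In mmca 10 of the 13 rose, and in mca4 8 of the 11 fell. In unirradiated mmca 8 members differed between days 9 and 1, 2 higher and 6 lower, with 21.2% of all genes. On carbon days 3 and 5, 12 and 15 of 23 members were called in mmca and mca4 together (42.9% and 60.6% of all genes).

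The dim members were tested in a fit without the filter on dim probes, in which 57.0% of all genes were called on gamma day 1, 71.2% on days 8 to 25, 7.17% on carbon day 1 and 66.6% on carbon day 20. The other alternatives in processing, 1 mean per group and leaving out arrays among them, were not run for these members. Tnf, the founding inflammatory cytokine of the family, read 1.13 and 1.01 in the unirradiated induced fibrosarcoma and 0.871 and 1.00 in unirradiated mca4, and 0.436 and 0.625 in nfsa and 0.352 and 0.343 in mmca. On day 1 in the induced fibrosarcoma it was 0.244 and 0.219 at 30 Gy, 0.380 and 0.395 at 50 Gy and 0.179 and 0.189 at 70 Gy. In mca4 it was 0.259 and 0.279, 0.513 and 0.440, and 0.182 and 0.236. In both tumours every irradiated array was below the unirradiated ones. Over the 4 tumours Tnf fell by 1.20 ± 0.073 on day 1 (adjusted p = 2.03e-23), with -1.30 at 30 Gy (60.4% of all genes called), -0.62 at 50 Gy (41.4%) and -1.67 at 70 Gy (58.4%).

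Late after gamma rays Tnf read 0.193 to 0.362 on all 27 irradiated arrays and 0.427 to 1.13 on the 8 unirradiated ones (-1.43 ± 0.073, adjusted p = 1.96e-28). In mmca, with unirradiated arrays of day 9 at 0.427 and 0.447, the change was -0.89 ± 0.15 (adjusted p = 8.25e-07). After carbon ions mmca and mca4 read 0.276 to 0.334 at 0 h and 0.287 to 0.443 on day 20 (0.15, adjusted p = 0.281). These Tnf intensities lie below most of the genes on the arrays, whose floor was 0.127.

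The other dim members mostly rose on carbon day 20. Tnfsf18, the ligand of GITR, went from 0.345 to 0.413 up to 0.909 to 1.06 (1.39 ± 0.16, adjusted p = 1.80e-11), and Tnfsf4, the OX40 ligand, from 0.0990 to 0.179 up to 0.365 to 0.698 (1.66 ± 0.25, adjusted p = 3.39e-08). Tnfsf4 was already up on carbon day 1 (1.09, adjusted p = 0.00274), and its 0 h values include some at the floor. Tnfrsf21 (DR6) rose by 0.68 and Tnfrsf17 (BCMA, another BAFF receptor) by 0.71. Late after gamma rays Tnfrsf21 (0.70), Tnfrsf17 (0.57) and Tnfsf18 (0.43) rose, and Tnfrsf13c (BAFF-R) fell by 0.27. Tnfsf4 lacked values on 11 arrays and had no mean over 4 tumours on gamma day 1 or later.

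Genes of the family that carry other symbols include Fasl, Fas, Ltb, Cd27 and Cd40. Of 14 listed, 9 were tested, with 4 higher and 2 lower on gamma day 1 (median 0.06), 6 higher and 2 lower on days 8 to 25 (median 0.70) and 8 higher and none lower on carbon day 20 (median 0.86), where 59.4%, 73.6% and 71.0% of all genes were called in either direction. Fasl rose by 1.66 late after gamma rays and by 3.08 on carbon day 20, Ltb by 1.21 and 1.98, and Cd27 by 1.46 and 2.36, all 3 typical of lymphocytes. Fas, the death receptor that p53 induces, rose by 1.47 on gamma day 1 and by 1.53 on carbon day 20. Between carbon days 5 and 20 in the induced fibrosarcoma, 7 of the 9 fell and 1 rose, against 44.9% of all genes called.

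The 24 tested genes of receptor-proximal signalling include TRAF proteins, Fadd, Cflar, IkB kinases and NF-kB subunits. Of these 24, 4 rose and 9 fell on gamma day 1, and 11 rose and 6 fell on days 8 to 25 (median 0.06). On carbon day 20, 14 rose and 4 fell (median 0.33). These shares are close to the 59.4%, 73.6% and 71.0% of all genes called. Birc3, an inhibitor of apoptosis that NF-kB induces, rose by 1.17 late after gamma rays and 0.76 on carbon day 20, and Traf1 by 1.09 on carbon day 20. Of 16 NF-kB target genes tested, 6 rose and 3 fell on gamma day 1, 8 rose and 2 fell late, and 8 rose and 3 fell on carbon day 20, shares near or below the same background. The adhesion molecule Vcam1 rose by 1.61 late after gamma rays and 2.05 on carbon day 20.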

How the data were processed

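RNA of 6 transplanted tumours was measured on 121 CodeLink arrays. RNA was extracted with ISOGEN and RNeasy, per the labels' protocols. The values are linear intensities as the authors deposited them, 1 per probe and array; scanner software, background correction and normalization are not given in the sources used here. Groups were taken from sample titles. Of 36227 probes, 21615 had 1 gene symbol, 681 several and 13931 none in the platform annotation. A gene was represented by its brightest probe with values on 90% of arrays. Intensities were floored at 0.127 (the 5th percentile) and log2 transformed, and missing values stayed missing. Probes with a mean log2 not above the 20th percentile were left out of the main test.

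limma 3.58.1 in R 4.3.3 fitted 1 mean per group over all arrays (67 residual degrees of freedom; lmFit, eBayes with trend). p-values are 2-sided and Benjamini-Hochberg adjusted over all genes tested in a comparison; a call is an adjusted p under 0.05. The F tests compare tumours. The median SD of a group was 0.0735 on carbon arrays, 0.0771 on gamma day 1 and 0.128 on later gamma arrays; the number of arrays limits the precision. The script was tested on simulated data. Members, gene lists and markers were chosen with earlier results of these data known. All members are named; those with the largest changes are given in full. Alternatives covered quantile normalization, no dim filter, the mean of all probes, another floor, missing values at the floor, beams fitted apart, no trend, a replicate block, 1 mean per group and leaving out arrays. Replicate numbers deviated together in all 15 pairs of carbon mca4 groups (r of 0.124 to 0.355, median 0.193), so arrays of the same number share some deviation there. Whether the samples were paired is not given in the labels. In carbon mmca 12 of 15 pairs had r over 0.1 (-0.00379 to 0.437, median 0.279). The only pair of carbon groups of the induced fibrosarcoma gave 0.109. In gamma scc7 2 of 3 pairs had r over 0.1 (-0.114 to 0.252, median 0.15). In the other sets of arrays they did not deviate together throughout.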

Additional observations from a re-analysis of the deposited data

Results flagged for a closer look

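The late response to gamma rays (days 8 to 25) differed among the induced fibrosarcoma, nfsa, mmca and mca4 by the limma F test for 19 members; each value is the highest minus the lowest of the 4 changes on the log2 scale. It was 2.66 for Tnfrsf18, 2.46 for Tnfrsf12a, 1.70 for Tnfsf9, 1.53 for Tnfrsf19, 1.46 for Tnfrsf23, 1.46 for Tnfrsf9 and 1.45 for Tnfrsf4. Tnfrsf18 was lowest in mca4 (-0.93) and highest in nfsa (1.73), and Tnfrsf12a was lowest in nfsa (-1.58) and highest in mmca (0.89), each a called change. The dimmer Tnfrsf18 probe gave 0.35 in mca4 and 1.29 in nfsa, so the Tnfrsf18 fall belongs to 1 probe. The spread was 1.21 for Tnfsf11, 1.06 for Tnfsf8, 1.02 for Tnfsf12, 0.959 for Tnfrsf22, 0.925 for Tnfrsf25, 0.883 for Tnfrsf1a and 0.792 for Tnfrsf10b. It was 0.693 for Tnfrsf14, 0.579 for Tnfrsf11a, 0.570 for Tnfrsf8, 0.490 for Tnfsf14 and 0.349 for Tnfrsf11b. The times and doses averaged were not the same in the 4 tumours, and only mmca had unirradiated arrays of a later day, so tumour and sampling scheme cannot be told apart.

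On gamma day 1, where doses and times matched, the response differed among the 4 tumours for 8 members. The spread was 1.37 for Tnfrsf19, 1.23 for Tnfrsf12a, 0.939 for Tnfrsf18, 0.693 for Tnfsf9, 0.590 for Tnfrsf25, 0.557 for Tnfrsf11a, 0.539 for Tnfsf8 and 0.467 for Tnfsf12. Tnfrsf19 ranged from -0.74 in the induced fibrosarcoma to 0.63 in mca4.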

How the results depend on the processing

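Counts of members called kept within 1.5 times of the main count under the alternatives run, apart from the following. With 1 mean value per group, 2 members were called on gamma day 1 in place of 14 and 5 on days 8 to 25 in place of 18. Both day 1 calls were rises, so every averaged day 1 fall of a tested member lost its call. The late calls were 2 rises and 3 falls. Under this setting 15 named averaged gamma results lost their call and 9 were unchanged. On carbon day 1, where 2 were called, quantile normalization gave 1, missing values at the floor 1 and beams fitted apart 8. Leaving out 1 array gave 1 to 1 on carbon day 1, 15 to 16 on carbon day 20, 11 to 14 on gamma day 1, 17 to 18 on days 8 to 25, 10 to 11 for 70 against 30 Gy, 6 to 10 for the difference among tumours on day 1 and 17 to 19 among unirradiated tumours. Leaving out arrays was not run for gamma nrs1 or for the carbon groups of the induced fibrosarcoma, nfsa, scc7 and nrs1. For Tnf and the other dim members no alternative to the fit without the dim filter was run. 3 results reversed: Tnfsf9 late in gamma mca4 with missing values at the floor (-0.13, adjusted p = 0.777), Tnfrsf10b at 30 Gy on day 9 in mmca against the day 1 control (-0.11, adjusted p = 0.549) and Tnfrsf9 in scc7 on day 35 without replicate 2 (-0.060), against 3.05 without replicate 1. The cause was not tested. With the replicate number as a block, 14, 18, 10, 2, 16, 9 and 15 members were called on gamma day 1, days 8 to 25, 70 against 30 Gy, carbon day 1, carbon day 20, and among tumours treated on day 1 and unirradiated. No carbon call among the named results changed under that block, and 3 gamma calls in single tumours were lost: Tnfsf11 on day 1 in nfsa (-0.77), Tnfsf9 on day 1 in mca4 (0.35) and Tnfrsf10b late in nfsa (-0.26). With missing values at the floor the Tnfsf13b rises in scc7 missed the threshold (adjusted p = 0.0529 and 0.0546). All genes shifted by a median of -0.12 on carbon day 5, -0.14 on day 20 and -0.10 late in the gamma-irradiated induced fibrosarcoma; relative to that, falls are smaller and rises larger. Of 169 results with arrays left out in turn, 44 lost a call at least once, 22 of them to a single array; for Tnfsf10 late in mmca the change then ranged from 0.21 to 0.68 and for Tnfrsf4 on day 1 in mca4 from -0.92 to -0.47.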
